A study of Mus musculus musculus x Mus musculus castaneus with 7 samples.

Results

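The Dlk1-Dio3 cluster is an imprinted stretch of mouse chromosome 12. Its members were taken by gene symbol from the deposited expression table: Meg3, Rian and Mirg, the noncoding genes, and Dlk1, Rtl1 and Dio3, the protein-coding genes. Of these 6 genes, 5 were found among the 24393 genes of the table, and Rtl1 was not analysed here. RNA was sequenced from 7 libraries of female cells of a musculus by castaneus mouse cross, with 1 library in each group. Mouse embryonic fibroblasts carrying a doxycycline-inducible lentiviral cassette of Oct4, Sox2, Klf4 and c-Myc, with the M2rtTA activator from a second lentivirus, were sorted for the state of an X-linked GFP reporter and then given doxycycline at 2 µg/ml with ascorbic acid at 50 µg/ml. The groups were cells of Day 2, cells sorted for the surface glycan SSEA1 on Days 8, 10, 13 and 15, the resulting induced pluripotent stem cells, called iPSCs, and embryonic stem (ES) cells, called ESCs. The iPSCs came from picked colonies from which doxycycline and ascorbic acid had been withdrawn. Both the iPSCs and the ESCs were sorted for SSEA1 and GFP. The ESCs were not derived from these fibroblasts, so reprogramming and cell origin cannot be told apart in differences between iPSCs and ESCs. The Day 2 label names no sort for SSEA1, so the effects of time and of sorting on differences from Day 2 cannot be told apart.

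In an imprinted cluster each gene is read mainly from the copy of 1 parent. At this locus the noncoding genes are read from the maternal chromosome and Dlk1, Rtl1 and Dio3 mainly from the paternal chromosome, under a methylated control region between Dlk1 and Meg3. The maternal noncoding RNAs are known as markers of mouse iPSC quality, because their silencing in some iPSC lines goes with poor development. The question put to these libraries was therefore how far the iPSCs held the maternal RNAs at the level of the ESCs, and what each gene did on the way. The counts were not split by allele, so which parental copy was read was not measured.

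Each group had 1 library, so replicate spread is unknown and no test was run. Values are normalized counts, that is, reads of a gene divided by the authors' size factor of the library, and intervals are 95% intervals of the read counts that cover counting error only. Reads assigned to genes numbered between 15370903 (iPSC) and 57021069 (Day 15). Markers separated the libraries: the 6 pluripotency markers summed to 303098 normalized counts in iPSCs and 264412 in ESCs, against 2.74 on Day 2, where 5 of the 6 had no read. Among these were Pou5f1 (Oct4) and Sox2, which the induced cassette carries, so the Day 2 library gave no read of them in the presence of doxycycline. The 7 fibroblast markers summed to 768405 on Day 2, 787 in iPSCs and 2718 in ESCs. The 8 macrophage markers summed to 22724 on Day 8 and 9635 on Day 13, and to between 101 and 2200 in the other 5 libraries. The Day 8 library lacked any read for 150 (2.13%) of the 7045 genes that all the other 6 libraries held at 8 or more on the log2 scale, and the Day 2 library for 116 (1.67%) of 6966 such genes, against 0 to 2 genes in each of the other 5 libraries. A value of 0 is therefore a weaker measurement of absence at Days 2 and 8. In bulk RNA, fewer cells that express a gene and less RNA per cell cannot be told apart.

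Meg3 (ENSMUSG00000021268, chr12:109541001-109571726 on mm10, plus strand, a long intergenic noncoding RNA) is the first gene of the maternal noncoding series and the one whose loss is most used to mark aberrant iPSCs. It had 589 normalized counts on Day 2, 1319 on Day 8, 1218 on Day 10, 1871 on Day 13, 2377 on Day 15, 1617 in iPSCs and 3011 in ESCs. The Day 2 library was lowest and the ESC library highest, and the iPSC value lay between those of Days 8 and 13. No pair of libraries next to each other in this order had a ratio whose counting interval included 1. Meg3 was 2.75-fold higher in iPSCs than on Day 2 (2.46 to 3.06) and 5.11-fold higher in ESCs than on Day 2 (4.69 to 5.58), and these ratios share the Day 2 library. At Day 8, the first library after Day 2, Meg3 was 2.24-fold higher than on Day 2 (2.04 to 2.46). In iPSCs Meg3 stood at 0.537 of its ESC level (0.493 to 0.584), which is short of a 2-fold difference in the measured value.

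Rian (ENSMUSG00000097451, chr12:109603940-109661716, plus strand), the host transcript of many small nucleolar RNAs, ran the other way over the early libraries. It had 1775 normalized counts on Day 2, 351 on Day 8, 1403 on Day 10, 813 on Day 13, 943 on Day 15, 668 in iPSCs and 829 in ESCs. The Day 2 library was highest and the Day 8 library lowest, and the Day 13 and ESC values did not differ beyond counting error. Rian was 5.06-fold lower on Day 8 than on Day 2 (4.55 to 5.63) and, on Day 10, between 3.60- and 4.45-fold higher than on Day 8. Without the Day 8 library the early difference was small: Day 10 stood at 0.791 of Day 2 (0.741 to 0.844). In iPSCs Rian was at 0.806 of its ESC level (0.701 to 0.924). Relative to Day 2 it was 2.66-fold lower in iPSCs (2.35 to 3.02) and 2.14-fold lower in ESCs (1.97 to 2.33), and the ESC difference was under 2-fold with each of 3 other scalings, the smallest being -0.79 on the log2 scale.

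Mirg (ENSMUSG00000097391, chr12:109729764-109749460, plus strand), the host transcript of a large microRNA group at the far end of the noncoding series, showed the widest swing of the maternal RNAs. It had 247 normalized counts on Day 2, 0 on Day 8, 56.7 on Day 10, 375 on Day 13, 373 on Day 15, 232 in iPSCs and 333 in ESCs. The low values were those of Days 8 and 10, the next lowest being the iPSC value, and it did not differ from the Day 2 value beyond counting error. Nor did the Day 13, Day 15 and ESC values differ among each other. Mirg was 101-fold lower on Day 8 than on Day 2, counting 0 reads as 3, and at least 81.4-fold lower by the counting interval. It had no read on Day 8 and 73 reads on Day 10. Counting 0 reads as 3, it was 23.2-fold higher on Day 10, and at least 18.4-fold higher by the counting interval. Between Days 10 and 13 it was a further 6.62-fold higher on Day 13 (5.14 to 8.62). The Day 8 value is one of many like it: of 484 other genes that stayed within the range of Mirg in the other 6 libraries, 96 (19.8%) also had no read on Day 8. The Day 10 level, from a library without that many missing genes, was at 0.23 of Day 2 (0.175 to 0.298). In iPSCs Mirg was at 0.697 of its ESC level (0.55 to 0.877).

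**Figure D1:**
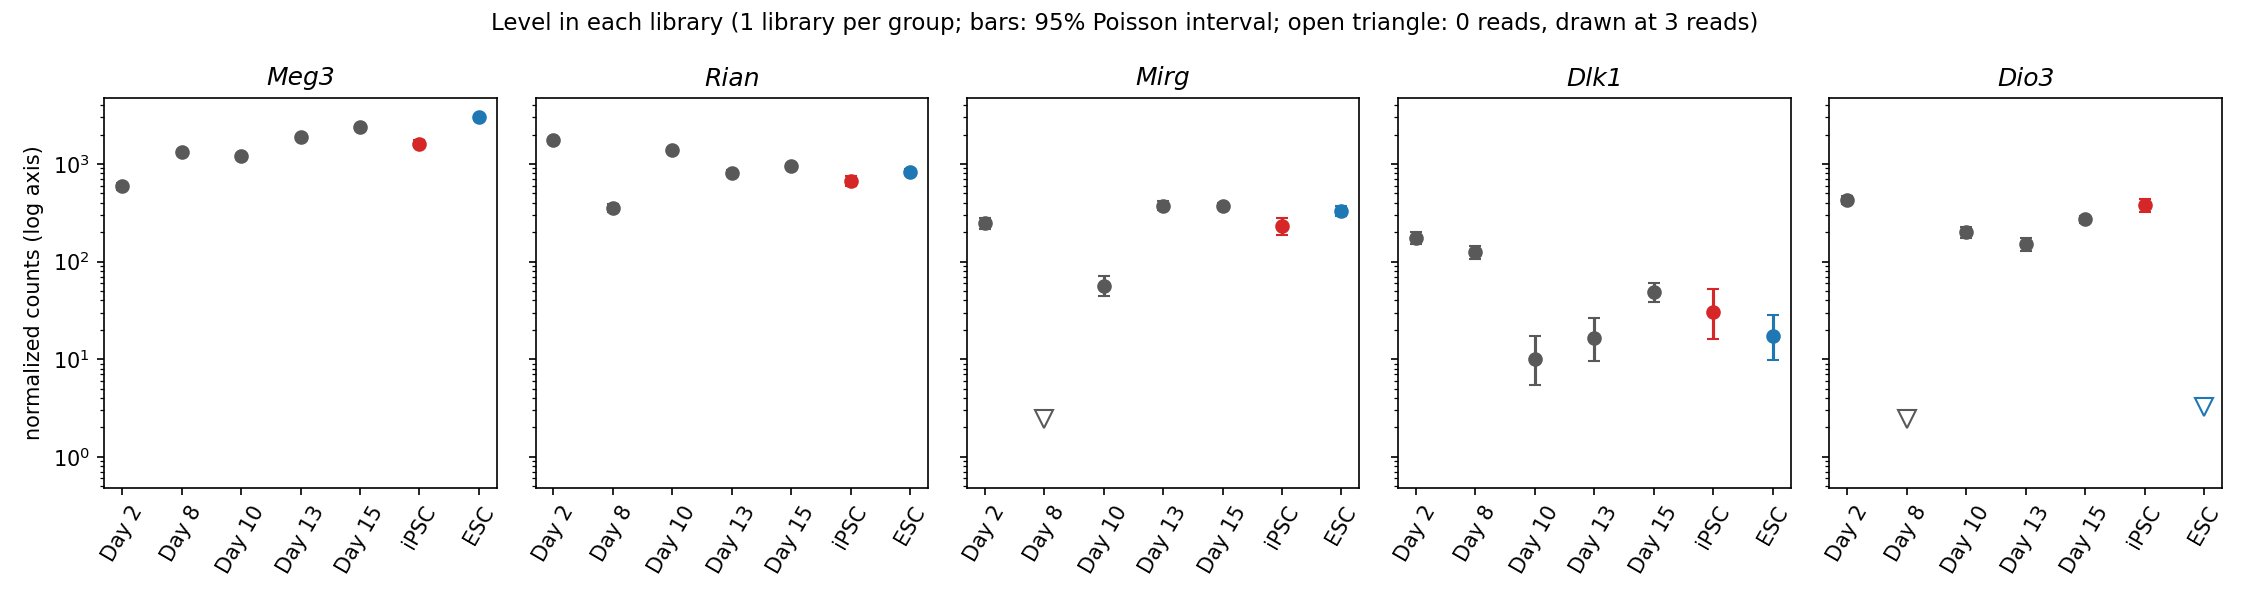
Normalized counts (log axis) of the 5 measured genes in each of the 7 libraries, with 95% Poisson intervals. Grey points are the days, red the iPSCs and blue the ESCs, and open triangles mark 0 reads and are drawn at 3 reads: Mirg and Dio3 on Day 8, and Dio3 in ESCs. Meg3 is highest in ESCs (3011), Rian on Day 2 (1775) and Dlk1 on Day 2 (175).

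The balance among the maternal RNAs can be read as ratios within a library, which no scaling between libraries affects. Meg3 had 0.332 reads per read of Rian on Day 2 (0.303 to 0.363), 3.76 on Day 8 (3.38 to 4.19), 0.868 on Day 10 (0.81 to 0.929), 2.30 on Day 13 (2.12 to 2.501), 2.52 on Day 15 (2.38 to 2.67), 2.42 in iPSCs (2.11 to 2.79) and 3.63 in ESCs (3.35 to 3.94). The ratio was thus above 1 in every library but those of Days 2 and 10. The intervals of Days 13 and 15 and the iPSCs overlapped, and the iPSC interval lay wholly below that of the ESCs. Mirg had 0.139 reads per read of Rian on Day 2 (0.122 to 0.158), 0.0404 on Day 10 (0.0315 to 0.0511), 0.462 on Day 13 (0.408 to 0.521), 0.395 on Day 15 (0.36 to 0.433), 0.347 in iPSCs (0.274 to 0.438) and 0.402 in ESCs (0.351 to 0.459). From Day 13 on, each interval overlapped that of the ESCs, and at Days 2 and 10 the ratio was lower.

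**Figure D2:**
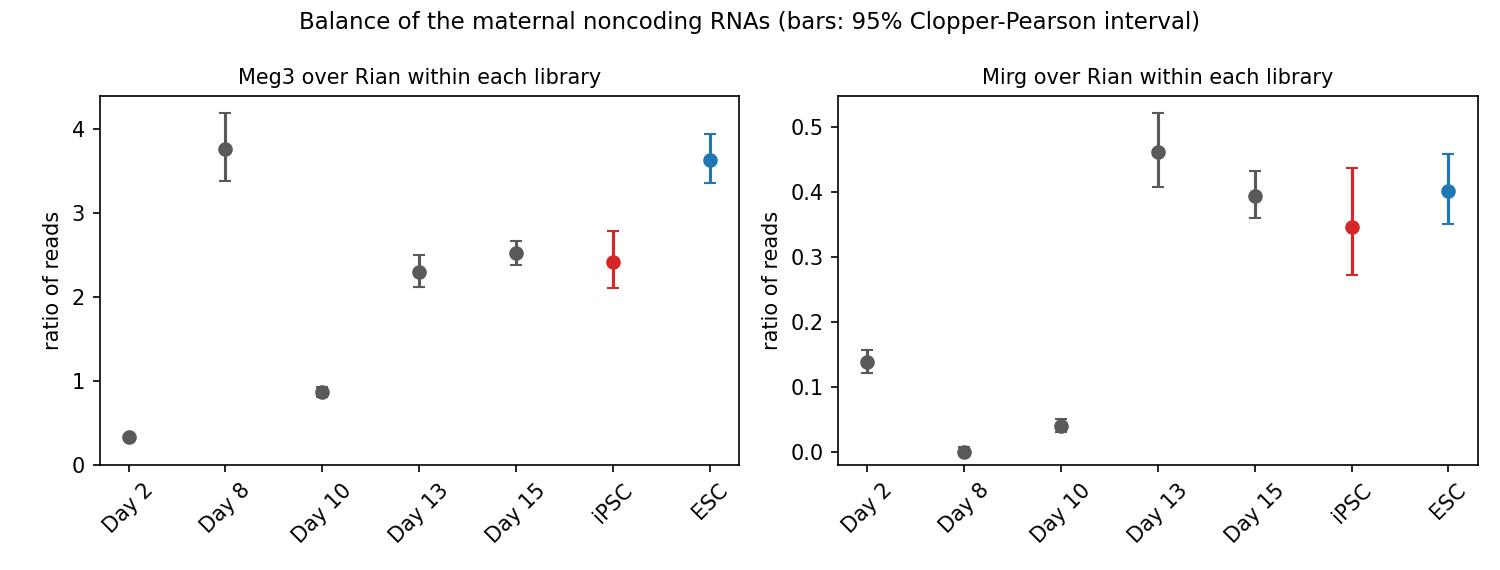
Reads of Meg3 per read of Rian (left) and of Mirg per read of Rian (right) within each library, with 95% Clopper-Pearson intervals. Meg3 over Rian was 2.42 in iPSCs and 3.63 in ESCs, and Mirg over Rian was 0.347 in iPSCs and 0.402 in ESCs.

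Levels of different genes were compared per kilobase of annotated exon, over the union of the exons of all isoforms. This scale understates a gene whose cells use few of its exons. In iPSCs Dio3 had 186 normalized counts per kilobase, Meg3 89.4, Rian 36.6, Mirg 31.8 and Dlk1 5.38. In ESCs Meg3 had 166 normalized counts per kilobase, Mirg 45.6, Rian 45.4 and Dlk1 3.06, with Dio3 at 0. At Day 2 the order was Dio3 at 212 normalized counts per kilobase, Rian at 97.3, Mirg at 33.9, Meg3 at 32.5 and Dlk1 at 30.9. Meg3 was thus the most abundant maternal RNA per length in both pluripotent libraries, and Rian was on Day 2.

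The interval from Wdr25 to Ppp2r5c holds 69 annotated microRNA genes, of which 6 had rows of their own, with few reads each. The libraries were not made for small RNAs, so these reads do not measure mature microRNAs. The 5 with microRNA names are given here as reads, and 4 of them as hairpins, because they lie upstream of or inside Mirg and can be set beside its course. Mir381 and Mir487b, which lie just upstream of Mirg, had no read at Days 2, 8 and 10. Mir381 then had 18 reads on Day 13, 12 on Day 15, 11 in iPSCs and 3 in ESCs. Mir487b had 27 reads on Day 13, 30 on Day 15, 13 in iPSCs and 15 in ESCs. Both were first seen on Day 13, whereas Mirg also had 270 reads on Day 2, where neither was read. Mir453, within an intron of Mirg, had 26 reads on Day 2, 0 on Day 8, 21 on Day 10, 18 on Day 13, 6 on Day 15, 1 in iPSCs and 18 in ESCs. Mir300 had 11 reads on Day 2, 1 on Day 13 and 0 elsewhere, and Mir1193 had 14 reads on Day 15 and 0 elsewhere. These counts are too low for an order among libraries.

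The hairpins are printed from GENCODE M21 (mm10, plus strand, 5′ to 3′). Capitals mark the longest run shared by the Mir300 and Mir381 hairpins, 16 bases found by string comparison, so a short read confined to it cannot tell the genes apart. Mir300 lies at chr12:109724313-109724391, Mir381 at chr12:109726822-109726896, Mir487b at chr12:109727333-109727414 and Mir453 at chr12:109735619-109735700.
Mir300: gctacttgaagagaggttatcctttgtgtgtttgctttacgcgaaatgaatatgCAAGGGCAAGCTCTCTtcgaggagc
Mir381: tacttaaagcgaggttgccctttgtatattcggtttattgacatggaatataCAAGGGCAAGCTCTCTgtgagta
Mir487b: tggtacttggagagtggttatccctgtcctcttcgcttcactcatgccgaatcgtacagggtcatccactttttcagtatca
Mir453: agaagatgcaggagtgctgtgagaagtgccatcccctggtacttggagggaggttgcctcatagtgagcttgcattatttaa

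Between Rian and Mirg lies B830012L14Rik (chr12:109695586-109702587, plus strand, a long intergenic noncoding RNA), which is no member by the rule but fills the gap in the series. It had 0 normalized counts on Day 2, 218 on Day 8, 23.3 on Day 10, 84.0 on Day 13, 27.3 on Day 15, 9.37 in iPSCs and 150 in ESCs. It was highest on Day 8, the library in which Mirg had no read, and in iPSCs it rested on 4 reads, against 139 reads in ESCs. Its iPSC level was 0.0624 of its ESC level (0.0168 to 0.163), whereas Rian and Mirg on either side of it were at 0.806 and 0.697. The transcripts of this stretch therefore did not keep 1 ratio between the 2 pluripotent libraries.

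**Figure D3:**
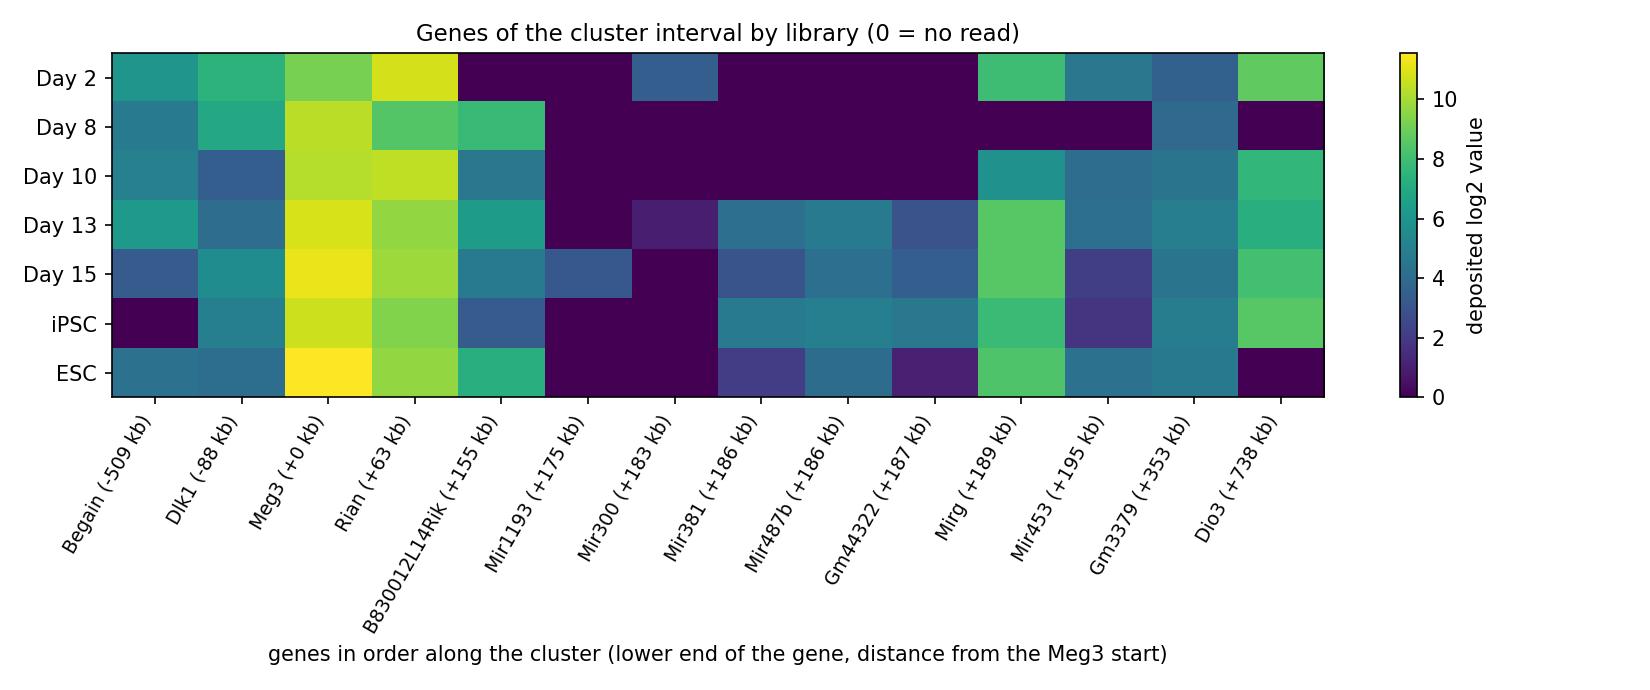
Deposited log2 values of the genes between Begain and Dio3 that had rows in the table, in chromosomal order, with the distance from the Meg3 start in kilobases. Rows are libraries and columns genes. Meg3 and Rian have reads in every library, whereas Mirg has no read on Day 8 and Dio3 none on Day 8 and in ESCs.

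Dlk1 (ENSMUSG00000040856, chr12:109452823-109463336, plus strand) encodes a delta-like membrane protein that modulates Notch signalling and is made by many fetal mesenchymal cells. It had 175 normalized counts on Day 2, 124 on Day 8, 10.1 on Day 10, 16.6 on Day 13, 48.8 on Day 15, 30.5 in iPSCs and 17.3 in ESCs. The first 2 libraries were high and the rest low, on 13 reads on Day 10, 17 on Day 13, 84 on Day 15, 13 in iPSCs and 16 in ESCs. Dlk1 on Day 8 was at 0.71 of Day 2 (0.57 to 0.884), and on Day 10 it was at 0.0814 of Day 8 (0.0424 to 0.143). It was 5.73-fold lower in iPSCs than on Day 2 (3.27 to 10.97) and 10.1-fold lower in ESCs than on Day 2 (6.06 to 18.0). Between iPSCs and ESCs the ratio of 1.76 had an interval of 0.78 to 3.91, so a difference was not detectable at this depth. Of the 7 fibroblast markers 6 passed the filter of 64 normalized counts on Day 10 against Day 8, with 4 lower, 1 higher (Thy1) and 1 within 2-fold, and their sum was 3903 normalized counts on Day 10, against 51149 on Day 8. The sum was 18678 on Day 13 and 49512 on Day 15. The part of these markers in the Dlk1 differences was not tested.

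Dio3 (ENSMUSG00000075707, chr12:110279068-110281097, plus strand, 1 exon) encodes the type 3 deiodinase, the selenoenzyme that inactivates thyroid hormone. It had 431 normalized counts on Day 2, 0 on Day 8, 199 on Day 10, 150 on Day 13, 271 on Day 15, 377 in iPSCs and 0 in ESCs. The Day 8 and ESC libraries had no read, and the iPSC and Day 2 values did not differ beyond counting error. The iPSC level rested on 161 reads in the library with the fewest reads. With 0 reads counted as 3, Dio3 was 116-fold higher in iPSCs than in ESCs, which leaves out counting error in the iPSC reads. Relative to Day 15, Dio3 was 1.39-fold higher in iPSCs (1.16 to 1.67). It was 83.5-fold lower in ESCs than on Day 15, again with 0 reads counted as 3.

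The zeros of Dio3 stood differently against the rest of their libraries. Of 171 other genes that stayed within the range of Dio3 in the 5 libraries where it was read, 20 (11.7%) had no read on Day 8 and 0 had none in ESCs. Of the 8204 genes at or above the level of Dio3 in iPSCs, 9 (0.11%), Dio3 included, had no read in ESCs. This set takes its threshold from Dio3 itself and has no upper limit, so its share is not one of genes at a like level. The selenocysteine codon that marks Dio3 as a selenoenzyme is shown because this gene separates the pluripotent libraries. It lies at chr12:110279739-110279741 (GENCODE M21, plus strand), and the window runs over chr12:110279715-110279765 with the codon, which reads as a stop in most genes, in capitals.
Dio3: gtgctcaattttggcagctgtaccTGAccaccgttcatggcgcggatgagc

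The members called at 2-fold or more were counted in each comparison beside the share of all genes called. A gene was compared where the higher library reached 6 on the log2 scale (64 normalized counts). Between iPSCs and ESCs 4 of the 5 members passed that filter, Dlk1 being below it. Dio3 was higher in iPSCs, none was lower, and Meg3, Rian and Mirg were within 2-fold, against 28.3% of 13592 genes called either way, 13.7% higher and 14.5% lower. The median log2 difference of the 4 was -0.41, against -0.02 over all genes compared. The log2 differences were -0.90 for Meg3, -0.52 for Mirg and -0.31 for Rian, so all 3 maternal RNAs stood below their ESC level in the 1 iPSC library. Each counting interval excluded equality on the deposited scale, but with total reads as the scale the Rian ratio was 0.912 with an interval of 0.793 to 1.05, which included it. Mitochondrial genes held 2.79% of the reads in iPSCs and 20.9% in ESCs, against 1.72% to 5.61% in the other libraries, and scaling without mitochondrial and ribosomal RNA genes left the log2 differences at -0.93 for Meg3, -0.55 for Mirg and -0.34 for Rian.

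**Figure D4:**
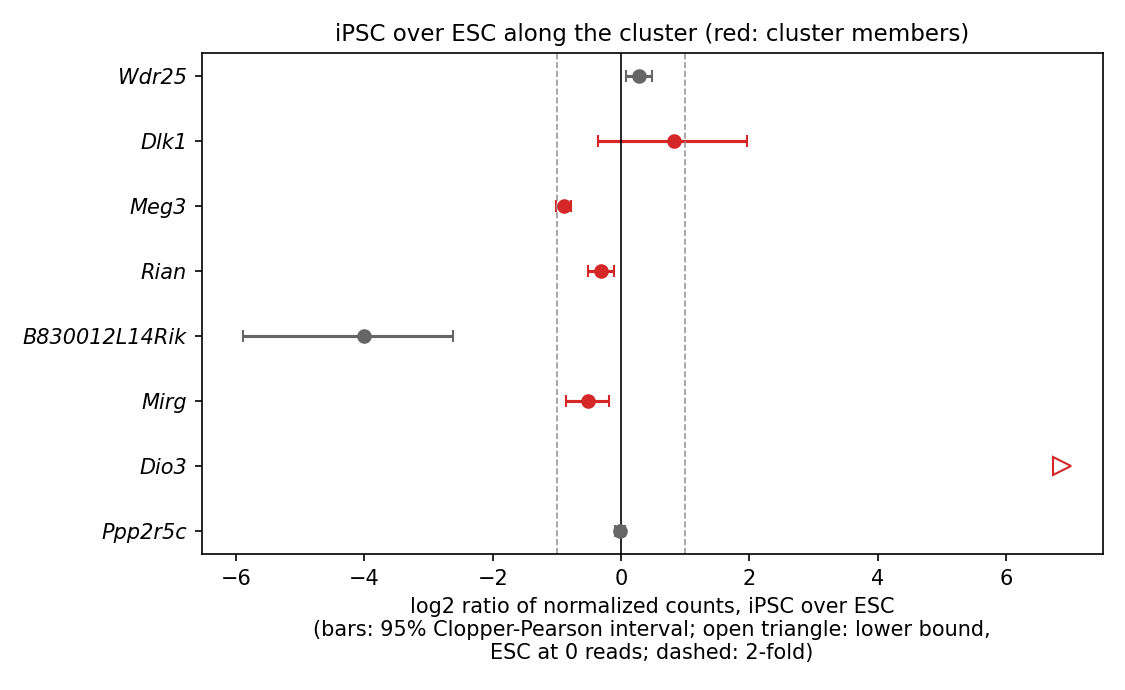
Log2 ratio of normalized counts, iPSC over ESC, for the 5 measured members (red) and for 3 other genes of the interval (grey), in chromosomal order, with 95% Clopper-Pearson intervals. The open triangle for Dio3 sets the 0 ESC reads to 3 (116-fold) and leaves out counting error in iPSCs. Meg3, Rian and Mirg lie between the 2-fold lines and below 0, and the flanking Ppp2r5c lies at a ratio of 0.99. Gm19605, which was higher in iPSCs, is not drawn.

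Along the course, counts of members called and shares of all genes called were both higher in the first steps than in the later ones. Between Days 8 and 2 all 5 members passed the filter: Meg3 was higher on Day 8, and Rian, Mirg and Dio3 were lower, where 58.1% of all genes were called either way, 26.3% higher and 31.8% lower. With Day 10 in place of Day 8 the members called were Meg3, higher on Day 10 by 2.07-fold (1.89 to 2.27), and Dlk1, Mirg and Dio3, lower, so the Rian call rests on the Day 8 library. Dio3 was at 0.462 of Day 2 on Day 10 (0.395 to 0.539). At Day 10 against Day 8, Rian and Dio3 were higher and Dlk1 lower among 4 that passed (46.5% of all genes called, 27.7% higher and 18.8% lower). The macrophage markers summed to 483 normalized counts on Day 10, against 22724 on Day 8, and their part in these differences was not tested.

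In the later steps the counts of members, 0 or 1 of 4, lay near the share of all genes called. Mirg alone of 4 was called on Day 13 against Day 10, higher on Day 13, with 25.2% of all genes called, 15.7% higher and 9.51% lower. None of 4 was called on Day 15 against Day 13 (27.7% of all genes, 14.6% higher and 13.1% lower) or in iPSCs against Day 15 (29.9%, 7.83% higher and 22.1% lower). In ESCs against Day 15 Dio3 was the 1 member called of 4, lower in ESCs (35.1% of all genes called, 11.3% higher and 23.8% lower). Set against Day 2, iPSCs had Meg3 higher and Dlk1 and Rian lower of 5 (58.5% of all genes called, 28.7% higher and 29.8% lower), and ESCs had Meg3 higher and Dlk1, Rian and Dio3 lower of 5 (58.9%, 29.1% higher and 29.8% lower). The spread of Meg3 over the 7 libraries, 2.35 on the log2 scale, exceeded that of 62.2% of the 10411 genes that passed the filter with a read in every library. That of Rian, 2.34, exceeded 61.9%, and that of Dlk1, 3.98, exceeded 83.2%.

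The genes listed as neighbours of the cluster gave a local comparison. There were 10 neighbours with values, and 7 of them passed the filter between iPSCs and ESCs. None of the 7 was called in either direction, beside 28.3% of all genes compared, and their median was 0.18 on the log2 scale. Gm19605, an annotated gene on the minus strand within the span of Ppp2r5c, was not on the neighbour list. It passed the filter and was more than 2-fold higher in iPSCs. Its log2 value was 6.70 in iPSCs, on 44 reads, and 3.91 in ESCs, on 13 reads. Wdr25 (chr12:108893631-109028452), a WD-repeat protein gene, had 304 normalized counts on Day 2, 574 on Day 8, 1473 on Day 10, 1392 on Day 13, 658 on Day 15, 745 in iPSCs and 613 in ESCs. It peaked at Days 10 and 13, where none of the members did except Mirg on Day 13. Ppp2r5c, a regulatory subunit of protein phosphatase 2A beyond Dio3, stayed between 4168 (iPSC) and 8556 (Day 13). Begain, a synaptic scaffold gene upstream of Dlk1, had 18 reads in ESCs and none in iPSCs, where 0 reads allow up to 7.03 normalized counts.

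The genes that keep or change imprints were given by lists. Of 8 genes listed for imprint protection, 6 were higher by 2-fold or more in iPSCs relative to Day 2 and none was lower. None of the 8 differed by 2-fold between iPSCs and ESCs. Over all genes, 28.7% were higher and 29.8% lower in iPSCs relative to Day 2, and 28.3% differed either way between iPSCs and ESCs. Zfp57, the zinc finger protein that binds methylated control regions, had 602 normalized counts on Day 2, 3848 on Day 8, 5570 on Day 10, 4847 on Day 13, 6815 on Day 15, 12288 in iPSCs and 10099 in ESCs. Its partner Trim28 had 4113 on Day 2, 25261 in iPSCs and 18118 in ESCs. Dppa3 (Stella), which shields the maternal genome from demethylation, had no read at Days 2 and 8, 654 normalized counts on Day 10, 2446 in iPSCs and 3313 in ESCs. Both Zfp57 and Dppa3 were thus higher in every library from Day 10 on than on Day 2.

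Of the 3 writers of new DNA methylation all were higher in iPSCs than on Day 2, where 28.7% of all genes were higher and 29.8% lower. Between iPSCs and ESCs Dnmt3b was the 1 called, at 5449 normalized counts in iPSCs against 11623 in ESCs, beside 28.3% of all genes called either way. Dnmt3a, whose product is known to methylate the control region of this cluster in mouse iPSCs that lose Meg3, had 7338 normalized counts in iPSCs and 7667 in ESCs. Of 5 genes that act in demethylation, 3 were higher in iPSCs than on Day 2 and none differed by 2-fold between iPSCs and ESCs, beside the same shares of all genes. The 3 were Tet1, Tet2 and Prdm14, and Prdm14 had 1757 normalized counts in iPSCs and 1145 in ESCs. Of 5 Polycomb and Meg3 regulator genes 4 passed the filter between iPSCs and ESCs and none was called, again beside 28.3% of all genes. The fifth, Aff3, which binds the control region of this cluster in mouse ESCs, was below the filter, at 37.5 normalized counts in iPSCs and 17.3 in ESCs, on 16 reads each (ratio 2.17, 1.02 to 4.63).

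Other imprinted clusters were set beside the members for the same pair of libraries. Of 10 maternally expressed genes of other clusters 7 passed the filter, of which 3 were lower in iPSCs, 1 was higher and 3 were within 2-fold, with a median of -0.78 on the log2 scale. Cdkn1c, a cell-cycle inhibitor, had 16.4 normalized counts in iPSCs and 253 in ESCs. H19, the maternal noncoding RNA of the Igf2 cluster, had 258 normalized counts in iPSCs and 1198 in ESCs, and Ascl2, a trophoblast factor, had 333 in iPSCs and 1133 in ESCs. Tspan32 was the higher one, at 110 in iPSCs and 24.8 in ESCs. Of 20 paternally expressed genes 17 passed, with 2 higher (Ndn and Plagl1), 2 lower (Airn and Nnat) and a median of 0.08. The shares over all genes were 13.7% higher and 14.5% lower. No test of a difference between these lists and the members was run.

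**Figure D5:**
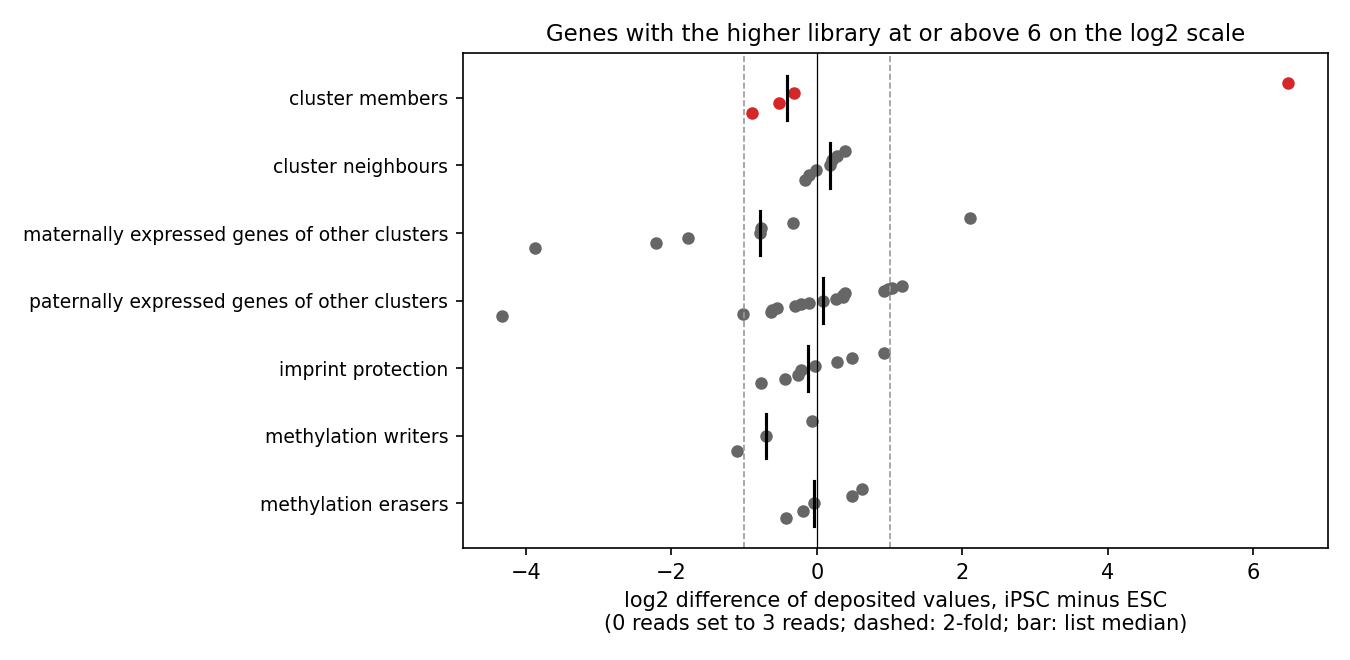
Log2 difference of the deposited values, iPSC minus ESC, with 0 reads set to 3 reads, for the genes of each list that passed the filter. Points are genes and black bars are list medians: -0.41 for the cluster members, 0.18 for its neighbours, -0.78 for maternally and 0.08 for paternally expressed genes of other clusters.

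The partners of the protein-coding members were followed in the same way. In the Notch list, in which DLK1 acts, 4 of 11 genes that passed were lower in iPSCs than in ESCs and none was higher, where 14.5% of all genes were lower and 13.7% higher. Dll1 had no read in iPSCs and 148 normalized counts in ESCs, Dlk2, the paralogue of Dlk1, none in iPSCs and 111 in ESCs, and Dll3 had 21.1 in iPSCs and 282 in ESCs. In the thyroid hormone and selenoprotein list 2 of 6 were higher in iPSCs and none was lower, beside the same shares of all genes. These were Slc16a10, a thyroid hormone transporter gene, with 225 normalized counts in iPSCs and no read in ESCs, and the receptor gene Thrb, with 82.0 in iPSCs and no read in ESCs, so both were, like Dio3, read in iPSCs and not in ESCs. Of 6 Gag-derived relatives of Rtl1 that passed, 2 were higher in iPSCs (Rtl6 and Rtl8b) and 1 lower (Rtl10), again beside 13.7% and 14.5% of all genes.

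Genes with the most similar course were sought among 16710 genes by Pearson's r over the 7 libraries on the deposited log2 scale, which describes these libraries only. For Meg3 the closest were Atp6v1d (r = 0.99), Bptf (0.98), Taf3 (0.978), Pcsk1n (0.972) and Cep78 (0.965). For Rian they were Abraxas2 (0.989), Vav2 (0.974), Ier5, Stom and Chmp6, and for Dlk1 Kdelc1 (0.979), Tpgs2 (0.978), Trp53i13, Specc1l and Purb. For Mirg they were Maml1 (0.994), Ice2 (0.994), Zbtb26, Lpar4 and Rnf122, of which 4 shared its 0 on Day 8. For Dio3 they included 4632404H12Rik (0.993), Hps6, Zscan20 and Kcnk2, each of which shared its zeros on Day 8 and in ESCs. No member was among the 5 closest genes of another member. Atp6v1d, a subunit of the vacuolar proton pump, lies on chromosome 12 as well, and the other genes named here lie on other chromosomes.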

How the data were processed

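The submitters' processing notes list FastQC, STAR (version 2.5.3a), featureCounts and the builds mm10 and GRCm38.p5, without settings. Per the labels' protocols, 500 pg of RNA went into cDNA synthesis and Nextera XT made the libraries; that kit does not mark strand, so a gene and its antisense partner share reads that cannot be assigned. Meg3, Rian and Mirg overlap annotated small or antisense genes over 1499, 623 and 367 exon bases in GENCODE M21. The values deposited by the authors are log2 of normalized counts plus 1, with a size factor method that no source used here gives. Taken off the log scale, 100% of the values were whole numbers of reads to within 0.01 reads (checked on simulated data). A read was worth between 0.581 (Day 15) and 2.34 (iPSC) normalized counts.

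Library differences were subtracted (pseudocount 1) and called at 1 on the log2 scale (2-fold) with the higher library at or above 6. Ratios carry 95% Clopper-Pearson intervals and levels 95% Poisson intervals. For ratios to a library without reads, 0 reads were counted as 3, and these ratios leave out counting error in the other library. Of 24393 symbols, 23485 were matched to GENCODE M21. Members and lists were chosen with earlier results of these data known. Named genes were the members, annotated genes of the interval, at most 4 per list by size of difference beside those whose course is described, and the 5 most similar genes of each member, of which 1 is not reported here. Python 3.11.15, scipy 1.17.1 and pandas 2.3.3 were used.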

Additional observations from a re-analysis of the deposited data

How the results depend on the processing

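Counts of members called in the 9 comparisons were recomputed under 5 other scalings, pseudocounts or treatments of zeros, 3 filters or thresholds and, chosen after seeing the data, exchanges of the Day 8 library. Under the scalings, pseudocount, zeros, filters and thresholds no called member changed direction. With Day 2 in place of Day 8, Dio3 was lower on Day 10 by a log2 difference of -1.11, whereas on Day 10 against Day 8 it was higher. Of all settings, 70 of 74 recomputed counts stayed within 1.5 times. The counts are small, so this limit lets a count go from 4 to 3, and it does not follow which members were called. With each of 3 other scalings Rian was not called in ESCs against Day 2. With a pseudocount of 8, Mirg was also called on Day 10 against Day 8. At 4-fold, 1 member (Dlk1) differed between iPSCs and Day 2, against 3 at 2-fold. With the filter at 8, 1 member (Rian) differed between Days 10 and 8, against 3. With no filter, 1 member (Dlk1) differed between Days 15 and 13, against 0, and 2 members (Dlk1 and Dio3) between ESCs and Day 15, against 1. Scaling by upper quartile or by total reads shifted the median of all genes by up to 0.42 on the log2 scale (Day 8 minus Day 2, total reads). Over all settings, Meg3 in iPSCs minus ESCs lay between -0.93 and -0.72, Mirg between -0.55 and -0.34, and Rian between -0.34 and -0.13. Without the Day 8 library the r of each named similar gene lay between 0.915 and 0.989. The genes were picked by r on these same libraries, so this is no independent check, and those named for Dio3 still share its 0 in ESCs. No paired analysis was possible because each group has 1 library and the labels carry no replicate numbers. Depth limits Dlk1, on 13 to 17 reads in 4 libraries, and B830012L14Rik and the microRNA rows.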
